A study of Rattus norvegicus with 30 samples.

Results

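The expression of 9 interferon-stimulated genes was followed in brain RNA of 30 rats. They were taken as the rows of the expression table whose gene symbol is Irf7, Irf9, Stat2, Isg15, Ifit2, Ifit3, Mx1, Mx2 or Oasl. All 9 symbols were found among the 17134 genes of the table, with 1 row each. The table gives them the Ensembl identifiers ENSRNOG00000017414 (Irf7), ENSRNOG00000019478 (Irf9), ENSRNOG00000031081 (Stat2), ENSRNOG00000069527 (Isg15), ENSRNOG00000036604 (Ifit2), ENSRNOG00000022839 (Ifit3), ENSRNOG00000001959 (Mx1), ENSRNOG00000001963 (Mx2) and ENSRNOG00000001187 (Oasl). There were 10 wild type (WT) rats that express rat amylin, 10 HIP rats that also express human amylin, and 10 amylin knockout (AKO) rats. Human amylin, unlike rat amylin, forms amyloid, and in HIP rats the transgene is active in the β-cells of the pancreas. All rats are labelled as males on normal diet, WT and HIP rats are Sprague Dawley rats, and those of the RNA-seq were aged 15 to 16 months. The study used AKO rats of more than 1 age, and the age of the AKO rats sequenced is not given in the sources used here. The strain of the AKO rats is not reported here. The tissue is labelled frontal cortex, and the study also speaks of hippocampus and cerebral cortex. The knockout was not checked, because the amylin gene Iapp was not matched by symbol and is not analysed here.

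Interferons are cytokines released when a cell senses viral or misplaced nucleic acid. Type I interferon binds its receptor and activates the kinases Jak1 and Tyk2, which phosphorylate Stat2. Stat2 joins Irf9 in a complex, ISGF3, which binds the interferon-stimulated response element (ISRE) in the promoters of target genes, and Irf7, itself a target, amplifies interferon transcription. The other members are effectors: Isg15 is a ubiquitin-like modifier, Ifit2 and Ifit3 bind foreign RNA or its complexes, Mx1 and Mx2 are dynamin-like GTPases that block virus replication, and Oasl belongs to the oligoadenylate synthetase family. In the brain, microglia and endothelial cells respond strongly to type I interferon, and an interferon-responsive state of microglia is known from aged and amyloid-bearing brain.

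Promoters of 6 of the 9 members were found in a RefSeq table of the assembly GRCr8, which is not the build (rn7) of the expression table. The entries were those of Irf7, Irf9, Stat2, Ifit3, Mx1 and Oasl. The letters GAAANNGAAA, the core of an ISRE, were searched on both strands in the 250 bases before each start site and were present in 2 of the 6, Irf7 and Ifit3. The same letters were present in 3.41% of the 33469 promoters of the table. The letters TTCNNNGAA, the core of a gamma-activated site (GAS), were present in 1 of the 6, Irf9, and in 7.67% of all promoters. The stretches with a match are shown with the match in capitals. Those of Irf7 and Ifit3 place the letters of the element that ISGF3 recognises in genes measured here. That of Irf9 holds the GAS letters and has no ISRE match. The Irf7 stretch is chr1:205800058-205800117 (GRCr8, minus strand), bases -94 to -35 from the start site. The Ifit3 stretch is chr1:241527257-241527316 (plus strand), bases -69 to -10, and the Irf9 stretch is chr15:33065712-33065770 (plus strand), bases -124 to -66. Each is written along the strand of its gene, and both ISRE letters read on the opposite strand.
Irf7 promoter (ISRE): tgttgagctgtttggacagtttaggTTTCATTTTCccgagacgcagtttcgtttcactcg
Ifit3 promoter (ISRE): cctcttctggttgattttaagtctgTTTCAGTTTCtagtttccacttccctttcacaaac
Irf9 promoter (GAS): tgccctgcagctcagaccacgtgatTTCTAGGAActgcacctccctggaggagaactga

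A match of these letters is a description of the sequence and was not tested as a binding site. In the same RefSeq table Ifit2 and Ifit3 are neighbours on chromosome 1, Oasl lies beside Oasl2 on chromosome 12, and Mx1 and Mx2 lie on chromosome 11 with Fam3b between them. Reads of such related genes can be hard to tell apart. Estimated reads (each value divided by the value of 1 read in that rat) were whole within 0.01 in all 30 rats for Irf7, Stat2, Ifit2, Ifit3 and Oasl. They were whole in 1 of 30 rats for Irf9, in 0 for Isg15 and in 4 each for Mx1 and Mx2, so that fractions of reads were counted for these 4 genes and their values are less certain. The fractions of Mx1 and Mx2 completed each other to whole reads, as in HIP rat 10RT48 with 223.494 and 213.506 estimated reads. Mx1 and Mx2 thus share reads and are not separate measurements.

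Estimated reads on genes were 12.9 to 21.2 M in WT, 13.7 to 16.7 M in HIP and 12.9 to 23.6 M in AKO rats. Their medians were 19.1 M in WT, 15.7 M in HIP and 16.1 M in AKO rats. Depth thus differed between WT and HIP rats and is partly confounded with that comparison. Isg15, Oasl and Mx1 rested on few reads, with at least 2.40, 3 and 3.01 estimated reads and at most 31.0, 70.0 and 223, whereas Stat2 had at least 400.0. A set of 7 rats stood apart from their groups in marker genes of other brain regions or cells. The mean log2(normalized count + 1) of cerebellum genes was 12.6 in WT rat 10RT43 and 9.69 in HIP rat 12RT23 against at most 6.02 in the other 28 rats, and that of cortical neuron genes was 7.51 in 10RT43 against at least 10.7 elsewhere. Pineal gland genes reached 9.48 in HIP rat 10RT46 against at most 2.54 elsewhere, and its choroid plexus genes 9.08. Choroid plexus genes stood at 6.89 in AKO rat 7AKO19. Microglia genes stood at 9.41 in HIP rat 10RT48 against at most 8.81 elsewhere, and AKO rat 4KAH27 was highest of its group in striatum genes (9.83) and lowest in microglia (7.93), astrocyte (11.99) and oligodendrocyte genes (11.6). High striatum genes were not particular to 4KAH27, with 9.92 in WT rat 10RT55, 9.48 in AKO rat 4KAH35 and 9.25 in HIP rat 10RT54. AKO rat 4KAH35 was highest of all 30 in genes of blood (8.85, others at most 7.81), neutrophils (5.47), endothelium (9.55, others at most 9.30), meninges (9.09), border macrophages (6.47), astrocytes (12.97) and ependyma (5.27).

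No difference of the 9 genes between WT, HIP and AKO rats passed the test across all genes. The 3 comparisons share groups and are given side by side. After Benjamini-Hochberg adjustment over all genes, 0 of the 9 had an adjusted limma p-value under 0.05 in HIP vs. WT, in AKO vs. WT or in HIP vs. AKO rats, beside 0%, 0.0997% and 0.17% of all genes tested (17085, 17058 and 17092). With voom on estimated reads it was also 0 of 9 in each. At an unadjusted p-value under 0.05 by limma, 0 of 9 members passed in HIP vs. WT rats, where 2.57% of all genes did. In AKO vs. WT rats 1 passed (Mx1), where 9.34% of all genes did, and 1 in HIP vs. AKO rats (Ifit2), where 12.7% did. A permutation test of each gene alone gave 0, 1 and 0 members under 0.05. The median difference of the 9 genes on the log2(normalized count + 1) scale was 0.05 in HIP vs. WT, 0.08 in AKO vs. WT and -0.11 in HIP vs. AKO rats, and that of all genes tested was 0.0018, 0.0014 and 0.0047. The mean log2 value was higher in the first group for 5, 6 and 4 of the 9. In bulk tissue, fewer cells of a type and less RNA per cell cannot be told apart.

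**Figure D1:**
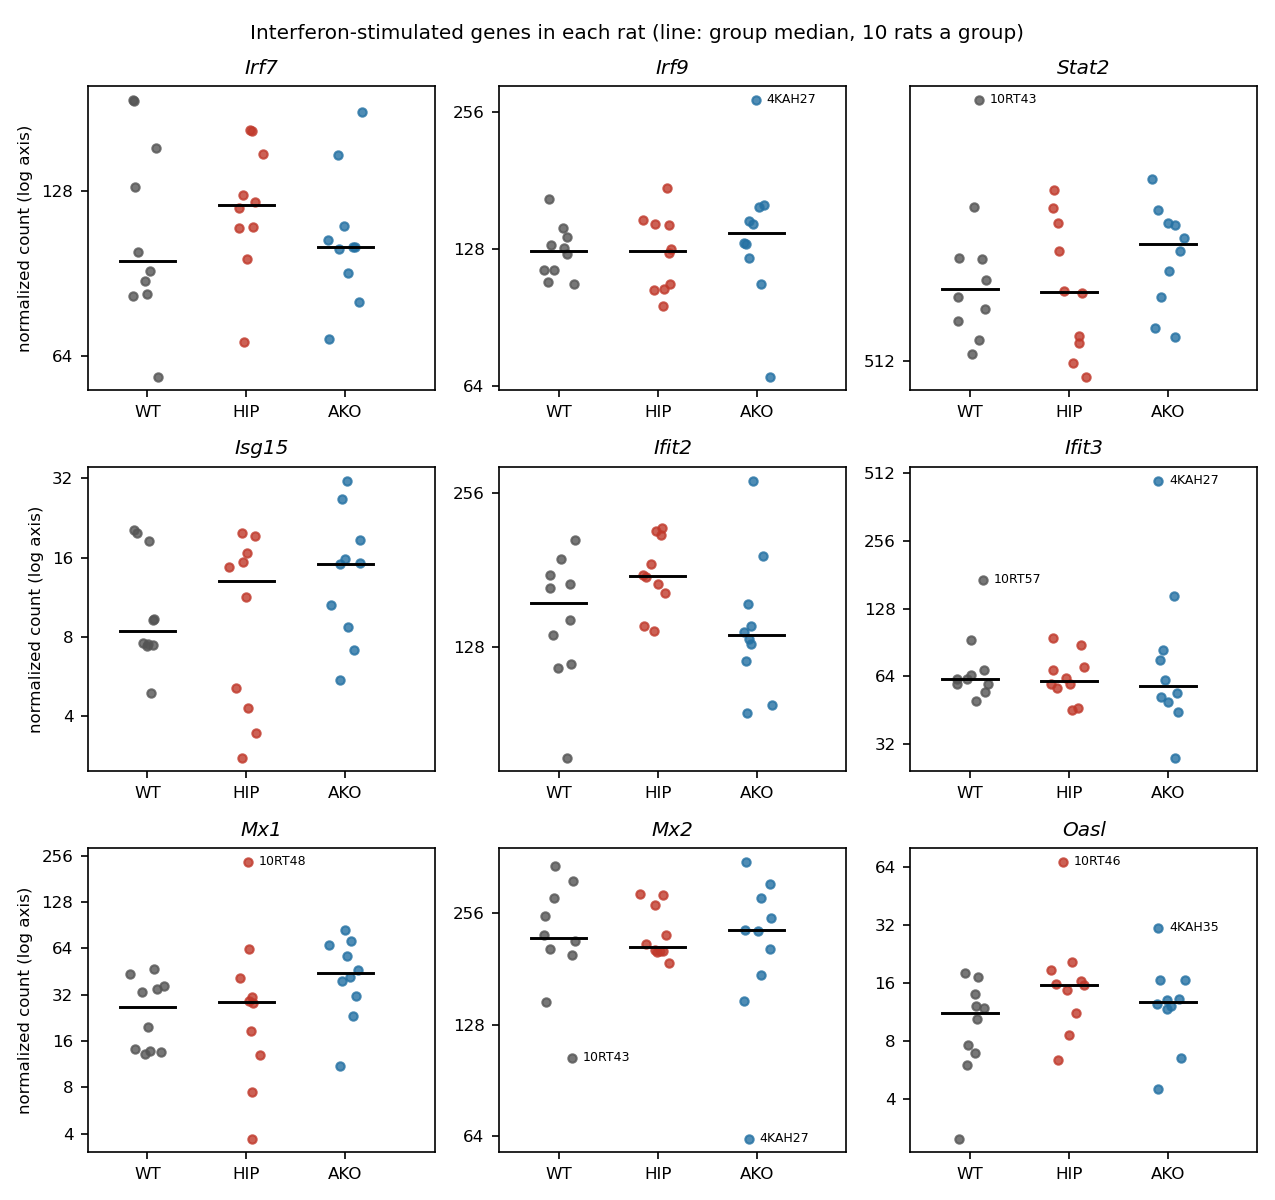
Normalized count of each of the 9 genes in every rat, on a log axis, with 10 points a group and a line at the group median. The 3 groups overlap for every gene, and single rats lie far above their group, such as HIP rat 10RT48 for Mx1 (234.1) and AKO rat 4KAH27 for Ifit3 (471.8).

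Of the transcription factors, Stat2, the subunit of ISGF3 that carries its activation domain, had at least 493.2 normalized counts in every rat. Its lowest, median and highest normalized counts were 520.9, 610.8 and 966.3 in WT, 493.2, 606.2 and 776.3 in HIP and 542.8, 680.3 and 798.0 in AKO rats. The 3 ranges overlapped almost wholly, and the highest value was that of 10RT43, the WT rat with cerebellum genes, beside 745.2 in the next WT rat. The log2 differences of Stat2 were -0.05 in HIP vs. WT (95% confidence interval -0.28 to 0.17), 0.06 in AKO vs. WT (-0.15 to 0.27) and -0.11 in HIP vs. AKO rats (-0.30 to 0.08), with limma p-values of 0.636, 0.569 and 0.254. Without 10RT43 the first 2 were 0.02 and 0.13.

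Irf9, the DNA-binding subunit of ISGF3, had 107.1, 126.8 and 165.0 normalized counts in WT (lowest, median and highest), 95.9, 126.7 and 174.7 in HIP and 67.2, 138.7 and 272.5 in AKO rats. The WT and HIP medians were nearly equal, and the AKO group held both the lowest rat of all, 6KAH98, and the highest, 4KAH27. The differences were -0.01 in HIP vs. WT (-0.24 to 0.22), 0.11 in AKO vs. WT (-0.23 to 0.46) and -0.12 in HIP vs. AKO rats (-0.48 to 0.24). Without 4KAH27 the last 2 were 0.002 and -0.01.

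Irf7, which amplifies the interferon response, ranged from 58.6 to 188.4 in WT (median 95.4), from 67.8 to 165.8 in HIP (median 121.1) and from 68.7 to 179.2 in AKO rats (median 101.3). The WT median was exceeded in 9 of 10 HIP rats, but the highest values of all were those of WT rats 10RT38 and 10RT57. The differences of Irf7 were 0.14 in HIP vs. WT (-0.29 to 0.56, p = 0.507 by limma), -0.05 in AKO vs. WT (-0.48 to 0.38) and 0.19 in HIP vs. AKO rats (-0.16 to 0.54). Without WT rat 10RT43 the first 2 were 0.04 and -0.15. With estimated reads as a covariate the HIP vs. WT difference was 0.53 (unadjusted limma p = 0.0265, adjusted p = 0.143), in a fit where 24.8% of all genes had an unadjusted p-value under 0.05.

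Ifit2, which binds RNA and can restrain translation, was higher in HIP than in AKO rats at the unadjusted threshold. Its normalized counts ranged from 77.7 to 206.7 in WT (median 155.5), from 137.6 to 218.3 in HIP (median 175.8) and from 94.8 to 270.2 in AKO rats (median 134.8). All 10 HIP rats were above the AKO median and 8 of 10 above the WT median, while the AKO group also held the highest rat of all, 4KAH27. The mean was 179.5 ± 29.0 in HIP, 150.1 ± 39.2 in WT and 147.1 ± 51.4 in AKO rats (SD, n = 10 each). HIP rats were higher than AKO rats by 0.33 (standard error 0.15, 95% confidence interval 0.02 to 0.65), with an unadjusted limma p-value of 0.0405, an adjusted one of 0.368 and a permutation p-value of 0.0502. Leaving out each of the 20 rats in turn gave 0.27 to 0.44, with unadjusted p-values from 0.00225 (without AKO rat 4KAH27) to 0.0852 (without AKO rat 7AKO42), under 0.05 in 8 of 20 cases. Of the rats set apart, 10RT48 and 7AKO19 gave 0.0705 and 0.0537 when left out. HIP vs. WT rats differed by 0.29 (-0.02 to 0.60, p = 0.0632 by limma), and by 0.19 without WT rat 10RT43 (p = 0.124). AKO vs. WT rats differed by -0.04 (-0.43 to 0.34), and by -0.15 without 4KAH27.

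Ifit3, the partner of Ifit2 and Ifit1 in RNA-binding complexes, showed no such order. It had 49.8, 62.3 and 172.2 normalized counts in WT (lowest, median and highest), 45.6, 60.9 and 95.03 in HIP and 27.9, 57.9 and 471.8 in AKO rats. The 3 medians were close, and the AKO mean of 106.6 ± 132.3 was set by rat 4KAH27, since the other 9 AKO rats had a mean of 66.1. The differences were -0.13 in HIP vs. WT (-0.52 to 0.27), 0.08 in AKO vs. WT (-0.67 to 0.84) and -0.21 in HIP vs. AKO rats (-0.92 to 0.49). Leaving out 4KAH27 turned the last 2 to -0.21 and 0.08.

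Mx1, the nuclear Mx protein of rodents, was higher in AKO than in WT rats at the unadjusted threshold. Its normalized counts ranged from 13.2 to 46.98 in WT (median 26.5), from 3.72 to 234.1 in HIP (median 28.6) and from 11.01 to 83.9 in AKO rats (median 44.1). The AKO rats were above the WT median in 8 of 10 cases and 4 were above the highest WT rat, and 1 AKO rat, 7AKO30, was below the lowest WT rat. The difference was 0.77 (standard error 0.34, 95% confidence interval 0.07 to 1.47), a 1.70-fold change on the log2(normalized count + 1) scale, with an unadjusted limma p-value of 0.0331, an adjusted one of 0.487 and a permutation p-value of 0.0462. Leaving out single rats gave 0.66 to 0.97, with p-values from 0.00361 (without 7AKO30) to 0.0663 (without AKO rat 4KAH35), under 0.05 in 12 of 20 cases. It was also above 0.05 without 7AKO19 (0.0622) and without 10RT43 (0.0574).

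In HIP rats Mx1 spread more than in the other groups, with an SD on the log2 scale of 1.57 against 0.73 in WT and 0.85 in AKO rats. HIP rats 10RT41 and 10RT52 were the lowest of all 30 at 3.72 and 7.44, and 10RT48 was the highest. The HIP mean was 46.9 ± 68.0 with 10RT48 and 26.1 ± 18.4 without it, beside 26.97 ± 13.4 in WT rats (SD). HIP vs. WT rats differed by 0.10 (-0.96 to 1.17), and by -0.24 without 10RT48. HIP vs. AKO rats differed by -0.66 (-1.73 to 0.40, p = 0.209 by limma), and by -1.01 without 10RT48 (unadjusted p = 0.0279).

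Mx2, the second Mx gene, had 104.0, 219.0 and 343.1 normalized counts in WT (lowest, median and highest), 187.4, 207.2 and 288.6 in HIP and 63.0, 229.6 and 351.7 in AKO rats. The HIP rats lay within the range of the WT rats and of the AKO rats, and the lowest WT and AKO rats were 10RT43 and 4KAH27. The differences were 0.05 (-0.30 to 0.41), -0.08 (-0.61 to 0.46) and 0.13 (-0.32 to 0.58) in HIP vs. WT, AKO vs. WT and HIP vs. AKO rats. The first was -0.06 without 10RT43, and the last 2 were 0.11 and -0.06 without 4KAH27. Unlike Mx1, Mx2 was at or under the WT median in 6 of 10 HIP rats.

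Isg15 was near the lower end of detection, with 4.90, 8.44 and 20.4 normalized counts in WT (lowest, median and highest), 2.79, 13.05 and 19.9 in HIP and 5.50, 15.2 and 31.3 in AKO rats. In HIP rats 4 values lay at 2.79 to 5.12 and 6 at 11.3 to 19.9, in WT rats 7 lay at 4.90 to 9.33 and 3 at 18.6 to 20.4, and those of AKO rats were spread more evenly. The differences were -0.11 in HIP vs. WT (-0.86 to 0.64), 0.40 in AKO vs. WT (-0.24 to 1.04, p = 0.205 by limma) and -0.51 in HIP vs. AKO rats (-1.28 to 0.25, p = 0.179). The HIP vs. WT difference was 0.05 without HIP rat 12RT23 and -0.21 without 10RT43.

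Oasl had 2.48, 11.1 and 18.01 normalized counts in WT, 6.32, 15.6 and 67.9 in HIP and 4.49, 12.7 and 30.8 in AKO rats. The WT median was exceeded in 7 of 10 HIP rats, and the highest was rat 10RT46, the HIP rat with pineal gland genes, beside 20.4 in the next HIP rat. HIP vs. WT rats differed by 0.68 (standard error 0.35, -0.04 to 1.4, p = 0.063 by limma), and by 0.45 without 10RT46 (p = 0.134). The HIP mean was 19.51 ± 17.5 with that rat and 14.1 ± 4.61 without it, beside 10.7 ± 4.97 in WT rats (SD). The other differences of Oasl were 0.34 in AKO vs. WT (-0.31 to 0.996) and 0.34 in HIP vs. AKO rats (-0.35 to 1.03). The last was 0.11 without 10RT46, and the AKO vs. WT difference was 0.20 without 4KAH35.

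**Figure D2:**
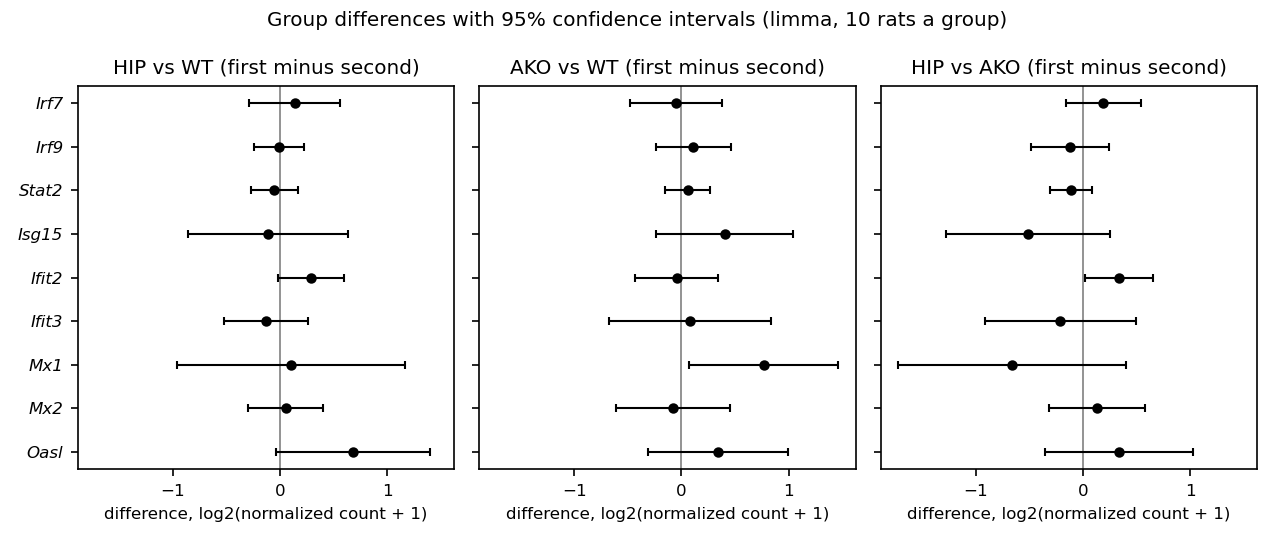
Difference between groups for each of the 9 genes on the log2(normalized count + 1) scale, with 95% confidence intervals from limma (n = 10 rats a group), first group minus second. The intervals clear 0 for Mx1 in AKO vs. WT rats (0.07 to 1.47) and for Ifit2 in HIP vs. AKO rats (0.02 to 0.65), and no gene passed the adjusted threshold.

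Within each group the members varied from rat to rat, and part of this variation was shared between genes. Over the 30 rats, with the mean of each rat's group subtracted, Pearson's r of the 36 pairs had a median of 0.24 and ranged from -0.48 to 0.71. Of these, 8 pairs had a Benjamini-Hochberg adjusted permutation p-value under 0.05 by r, 14 by Spearman's rho and 7 by both. The share of other gene pairs that pass in the same way was not computed. These counts can thus not be read as particular to interferon-stimulated genes. By rho but not by r, Irf9 passed with Mx1 (rho = 0.63), Irf7 (0.54) and Isg15 (0.50). Irf7 with Ifit3 (0.55) and Mx2 (0.47), Isg15 with Mx2 (0.55) and Ifit3 with Mx1 (0.46) also passed by rho alone. The points share library size and tissue composition. The highest r were those of Irf9 with Ifit3 (r = 0.71, adjusted permutation p = 0.00864, rho = 0.47, adjusted permutation p = 0.0322), Ifit2 with Ifit3 (r = 0.67, adjusted permutation p = 0.00558, rho = 0.50, adjusted permutation p = 0.023) and Isg15 with Mx1 (r = 0.64, adjusted permutation p = 0.00558, rho = 0.72, adjusted permutation p = 0.00072).

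Irf7 co-varied with Oasl (r = 0.58, rho = 0.64), Isg15 (r = 0.52, rho = 0.50) and Mx1 (r = 0.48, rho = 0.59), and Mx1 with Mx2 (r = 0.46, rho = 0.75), with adjusted permutation p-values of 0.0108, 0.0157, 0.0225 and 0.0108 for r and 0.00531, 0.0199, 0.00598 and 0.00036 for rho. Without the 2 rats farthest from the median of the first gene of each pair, r was 0.65 for Isg15 with Mx1, 0.59, 0.53 and 0.51 for Irf7 with Oasl, Isg15 and Mx1, and 0.62 for Mx1 with Mx2. Within the 3 groups of 10 these 5 r were between 0.45 and 0.76. These 5 pairs thus kept a positive r in each group and without the 2 rats left out. In the Irf7 pairs, HIP rats 10RT46 and 10RT48, the highest in Oasl and Mx1, were not among those left out. Mx1 and Mx2 share reads, and the part of this in their r was not tested.

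The pairs with Ifit3 differed in this respect. Irf9 with Ifit3 dropped from 0.71 to 0.34 without AKO rats 6KAH98 and 4KAH27, and r was 0.67 in WT, 0.14 in HIP and 0.84 in AKO rats. Ifit2 with Ifit3 was 0.60 without AKO rat 4KAH27 and WT rat 10RT43, and r was 0.52 in WT, 0.04 in HIP and 0.90 in AKO rats. The r of the neighbouring genes Ifit2 and Ifit3 was thus near 0 in HIP rats and positive in the other groups, a difference that was not tested.

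One pair ran the other way, Stat2 with Ifit2 (r = -0.48, adjusted permutation p = 0.0372, rho = -0.38, adjusted permutation p = 0.0991). Its r was -0.31 without WT rat 10RT43 and HIP rat 10RT52, and -0.54, -0.10 and -0.76 in WT, HIP and AKO rats. Stat2 had an adjusted permutation p-value under 0.05 by r with no other member. Its r with Irf9, the other ISGF3 subunit, was 0.10, and 0.40 without AKO rats 6KAH98 and 4KAH27.

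**Figure D3:**
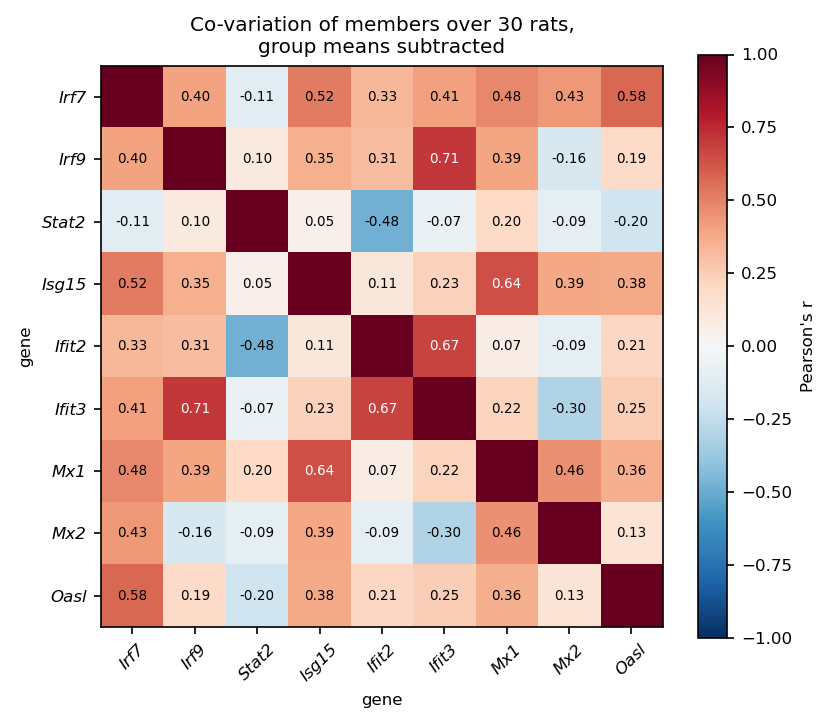
Pearson's r between each pair of the 9 genes over 30 rats, on log2(normalized count + 1) with group means subtracted. Irf7, Isg15, Mx1 and Oasl are positive with each other (0.36 to 0.64). Irf9 and Mx2 are also positive with Irf7 (0.40 and 0.43), Isg15 (0.35 and 0.39) and Mx1 (0.39 and 0.46). The highest values are those of Irf9 with Ifit3 (0.71) and Ifit2 with Ifit3 (0.67), and Stat2 with Ifit2 is negative (-0.48).

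In single rats some of these genes were high while others were not, and each such pattern is that of a single animal. AKO rat 4KAH27 had the highest Ifit2, Ifit3 and Irf9 of all 30 rats, but the lowest Mx2, and its Irf7 (104.2), Isg15 (15.2) and Mx1 (31.6) were inside the range of the other AKO rats. Of 102 other genes of the interferon pathway in the table, 22.5% had their highest value in this rat, beside 11.04% of all genes, and 13.7% their lowest, beside 10.5% of all genes. Those highest included Socs3, a feedback inhibitor of cytokine receptors (1061 normalized counts, others at most 109.6), the transcription factor Irf1 (828.3, at most 188.5), the peptide transporter Tap1 (544.9, at most 127.5), the antiviral enzyme Rsad2 (274.3, at most 70.8) and the chemokine Cxcl10 (105.6, at most 27.9). Irf1, Socs3, Tap1 and Cxcl10 are also known targets of interferon gamma. Its neutrophil genes (4.86) were the second highest of all rats. Beside this, the rat's microglia, astrocyte and oligodendrocyte genes were the lowest of its group and its striatum genes the highest, and their part in these values was not tested.

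HIP rat 10RT48, with the highest Mx1, was unremarkable for Ifit3 (70.2), Isg15 (14.8), Irf7 (122.5) and Oasl (14.7). Its Ifit2 (215.7) and Stat2 (743.5) were high for HIP rats, whose highest values were 218.3 and 776.3. Of all rats, only 4KAH27 and 10RT41 had a higher Ifit2. Rat 10RT48 held the highest value of 23.5% of the 102 pathway genes, beside 2.83% of all genes. They included Ciita, the regulator of MHC class II genes (72.3, others at most 16.9), the nucleic acid sensor Zbp1 (49.2, at most 13.1), Irf8 (284.9, at most 154.1) and Lgals3bp (838.8, at most 578.8). Its microglia genes were the highest of all rats, with Aif1 at 365.5 and Cd68 at 259.7 against at most 212.4 and 59.1 in other HIP rats. The part of the microglia genes in the Mx1 value of this rat was not tested.

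AKO rat 4KAH35 was among the 3 highest of 30 rats in 5 of the 9 members and highest of its group in Irf7, Mx1 and Oasl, and its mean over the 9 (7.00 on the log2 scale) was the highest of all. It held the highest value of 10.8% of the pathway genes, beside 5.44% of all genes, among them Usp18, which removes Isg15 from proteins (92.5, others at most 59.0), and Oas2 (14.8, at most 7.63). Its blood, neutrophil, endothelium, meninges, border macrophage, astrocyte and ependyma genes were the highest of all rats, as given above, and their part was not tested. WT rat 10RT57 was among the 3 highest in 4 members and highest of its group in Irf9, Isg15, Ifit3 and Mx1. WT rat 10RT43 had the lowest mean over the 9 genes (5.67) and HIP rat 10RT41 the next lowest (5.72).

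**Figure D4:**
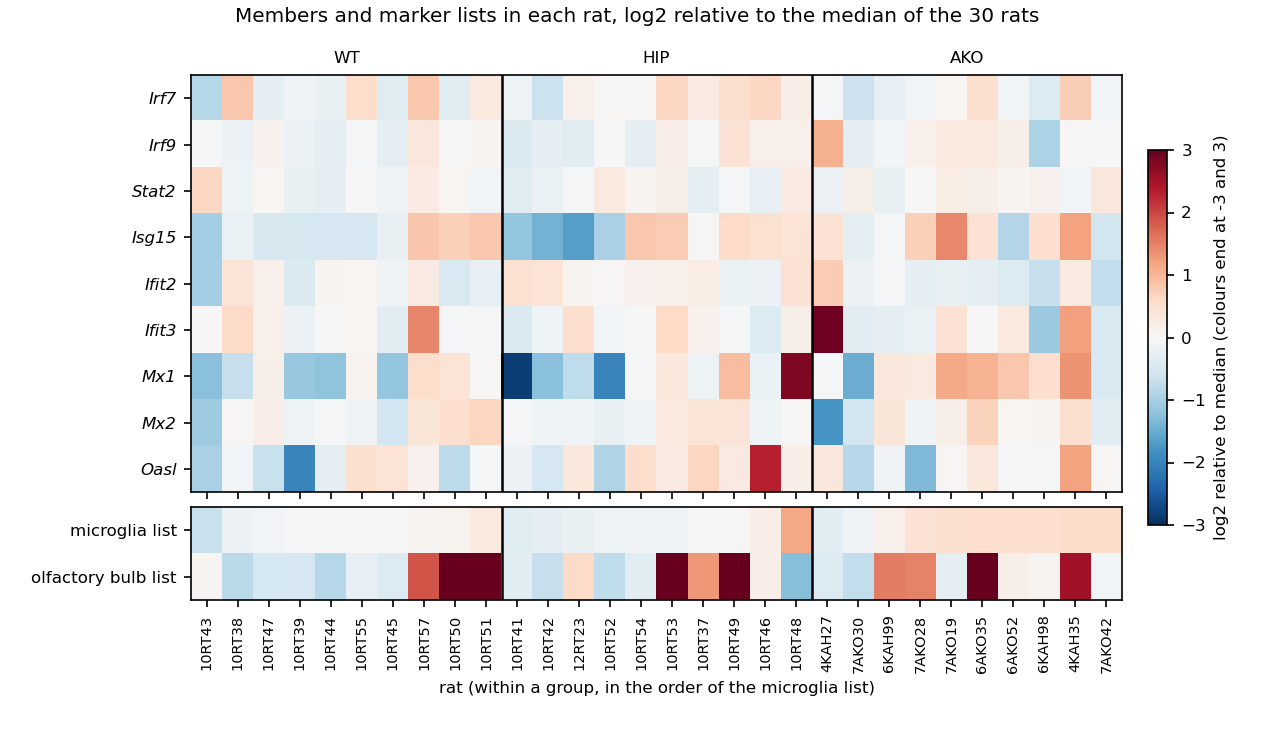
The 9 genes in each of the 30 rats as log2(normalized count + 1) relative to the median of all rats, with the means of microglia and olfactory bulb marker lists below, and rats within a group in the order of the microglia list. Ifit3 is high in AKO rat 4KAH27 (471.8), where Mx2 is low (63.0), and Mx1 is high in HIP rat 10RT48 (234.1), which has the highest microglia list (9.41).

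Over the 30 rats Mx1 and Mx2 went with microglia genes, though Mx2 only weakly within HIP rats (r = 0.13). The mean of 14 microglia markers (of 15 listed, none at 0 in every rat of a group) was 7.57 to 8.54 in WT, 7.88 to 9.41 in HIP and 7.93 to 8.81 in AKO rats, with medians of 8.24, 8.14 and 8.74. Of these 14 markers, 8 were higher in AKO than in WT rats at an unadjusted limma p-value under 0.05 and 0 lower (beside 9.34% of all genes in either direction), 0 passed in HIP vs. WT rats, and 7 were lower and 1 higher in HIP than in AKO rats (beside 12.7%), with 0 past the adjusted threshold. Neutrophil markers moved alike, with 5 of 6 tested higher in AKO than in WT rats (median difference 1.25) and 3 of 6 lower in HIP than in AKO rats (median -1.03). With group means subtracted, the microglia mean had an r of 0.73 with Mx1 (adjusted permutation p = 0.00081 over the 9 members, rho = 0.59, adjusted permutation p = 0.00459) and of 0.54 with Mx2 (adjusted permutation p = 0.00454, rho = 0.49, adjusted permutation p = 0.0404). Without HIP rat 10RT48 and AKO rat 4KAH27 both were 0.63. Because Mx1 and Mx2 share reads, these are not separate results.

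Within WT, HIP and AKO rats r with the microglia mean was 0.55, 0.84 and 0.60 for Mx1 and 0.84, 0.13 and 0.77 for Mx2. The other 7 members had no adjusted permutation p-value under 0.05, and their r ran from -0.21 (Ifit3) to 0.44 (Isg15). With the microglia mean as a covariate, the AKO vs. WT difference of Mx1 was 0.16 (unadjusted limma p = 0.644) in place of 0.77, and that of Mx2 was -0.72 (unadjusted p = 0.00173, adjusted p = 0.306) in place of -0.08. HIP vs. AKO rats then differed in Ifit2 by 0.25 (p = 0.147 by limma) in place of 0.33, and in Mx1 by 0.13 in place of -0.66.

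Rats also differed in olfactory bulb genes, although the labels name frontal cortex. The mean of 8 olfactory bulb markers lay between 6.66 and 9.28 in 10 rats (3 WT, 3 HIP and 4 AKO) and between 4.09 and 5.94 in the other 20, a gap that was noticed in the data and is described without a test. All 10 rats were above the median of the other 20 in Isg15 (medians 18.6 and 7.55), Mx1 (42.5 and 21.4), Mx2 (287.7 and 202.7) and Irf9 (140.9 and 120.1), and 8 of 10 in Irf7 (139.7 and 100.8). For Stat2, Ifit2 and Ifit3 it was 4 of 10 and for Oasl 6 of 10. In Mx2, 9 of the 10 rats were above every one of the other 20, whose highest value was 250.5. The share of all genes that separate these rats in the same way was not computed. The counts can therefore not be read as particular to these genes. With the bulb mean as a covariate, the difference of Mx1 in AKO vs. WT rats was 0.70 (unadjusted limma p = 0.0211).

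**Figure D5:**
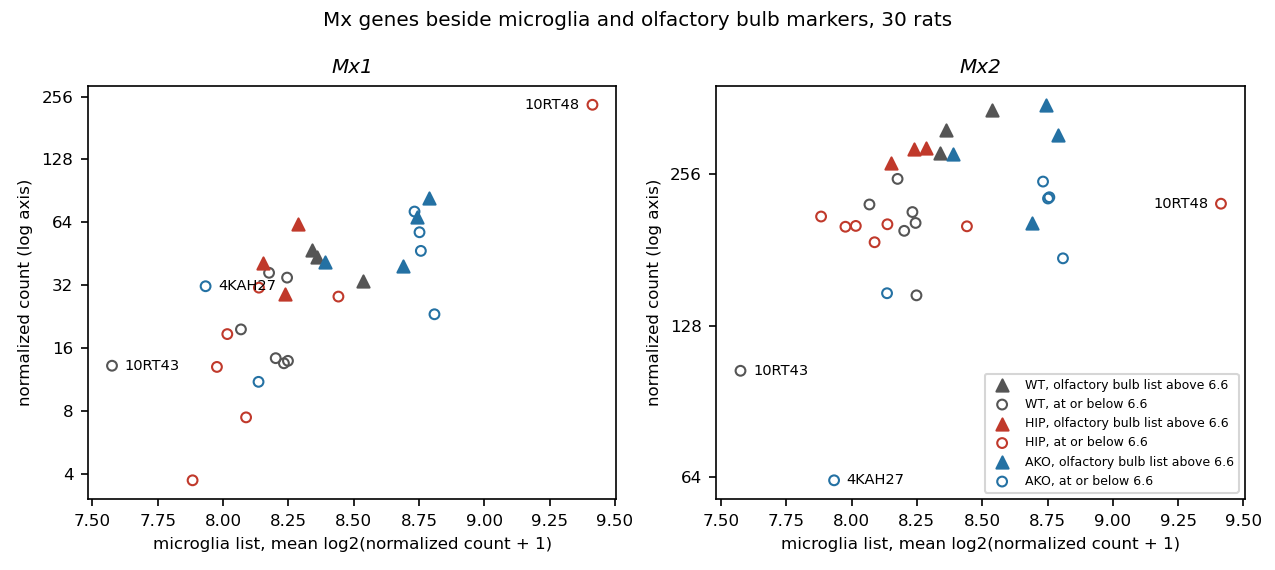
Normalized count of Mx1 and Mx2 (log axes) in 30 rats against the mean log2(normalized count + 1) of microglia markers, with triangles for the rats whose olfactory bulb list exceeds 6.6. Over all rats both genes rise with microglia marker RNA (r = 0.73 and 0.54 with group means subtracted), but within HIP rats r is 0.13 for Mx2. The highest Mx2 values (up to 351.7) are those of rats with olfactory bulb markers.

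The rest of the pathway was read from a list of sensors, ligands, receptors, transcription factors, inhibitors and effectors without the 9 members, of which 102 genes were in the table and tested. Of 11 genes of interferon ligands, 0 were matched by symbol, so that the ligands are not analysed here, nor is Ifit1. Of the 102 genes, 0 passed the adjusted threshold in any comparison by limma, where 0%, 0.0997% and 0.17% of all genes did. In HIP vs. WT rats 1 was higher and 0 lower at the unadjusted threshold (0.98%, beside 2.57% of all genes), Trim21, an antibody receptor in the cytosol (0.29, p = 0.0307). The median of the 102 differences was 0.05 in HIP vs. WT, 0.12 in AKO vs. WT and -0.07 in HIP vs. AKO rats.

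In AKO vs. WT rats 12 of the 102 genes were higher and 0 lower at the unadjusted limma threshold (11.8%, beside 9.34% of all genes). They were led by Irf8, a transcription factor of microglia (0.53, p = 0.00295), Parp10 (0.48, p = 0.00369), the phosphatase Ptpn6 (0.46, p = 0.00392) and Lgals3bp (0.53, p = 0.00876). Ciita (0.86), the interferon gamma receptor subunit Ifngr1 (0.31), the membrane protein Ifitm1 (0.82) and Ifi27 (0.45) followed. By role, 5 of 45 effectors, 4 of 19 genes of the interferon gamma response, 1 of 8 receptors and kinases, 1 of 8 transcription factors, 1 of 9 inhibitors and 0 of 13 sensors were higher. Without AKO rat 4KAH35 the count was 8 higher and 1 lower, and without 7AKO30 it reached 19 higher. Ifngr1 and Ifitm1 were highest in 4KAH27 (1481 and 249.6 normalized counts, others at most 957.4 and 89.05), and without that rat they differed by 0.22 (p = 0.0247 by limma) and 0.57 (p = 0.0385). The microglia, neutrophil and blood markers had a median difference of 0.39, 1.25 and 0.54 in the same comparison, with 8 of 14, 5 of 6 and 1 of 6 higher at the unadjusted threshold and 0 lower. The mean of the neutrophil list ran from 1.68 to 2.71 in WT and from 2.26 to 5.47 in AKO rats, and that of the blood list from 5.41 to 6.74 and from 5.62 to 8.85, with no marker of either at 0 in a whole group. With the microglia mean as a covariate, 9 of the 102 genes were higher and 3 lower, and the part of neutrophil and blood markers was not tested.

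In HIP vs. AKO rats 3 of the 102 genes were higher and 9 lower at the unadjusted threshold (11.8%, beside 12.7% of all genes). Among those higher in HIP rats were Ifnar1, a subunit of the type I receptor (0.14, p = 0.0138), and the inhibitor Pias1 (0.27, p = 0.0481). Lower were Irf3, which induces interferon genes (-0.42, p = 0.00633), Socs3 (-1.21, p = 0.0127), Tap1 (-0.73, p = 0.014), Ifngr1 (-0.30, p = 0.0168), the immunoproteasome subunit Psmb10 (-0.29, p = 0.0181) and Ifitm1 (-0.89, p = 0.0263), among others. Socs3, Tap1, Ifngr1 and Ifitm1 had their highest value in rat 4KAH27. The AKO medians of the 4 genes were 46.6, 99.998, 779.8 and 40.9, beside HIP medians of 25.5, 67.2, 678.1 and 24.9. Without 4KAH27 the differences were -0.77 (p = 0.00198 by limma), -0.48 (p = 0.00719), -0.20 (p = 0.021) and -0.63 (p = 0.0536), and 4 of the 102 genes were higher and 6 lower. The count moved the other way when rats 10RT46, 10RT48 and 7AKO19 were left out, with 3 higher and 20 lower (22.5%, beside 14.2% of all genes), and leaving out 10RT48 alone gave 15 lower. In the same comparison 7 of 14 microglia, 3 of 6 neutrophil, 2 of 5 border macrophage, 2 of 8 endothelium, 2 of 8 astrocyte and 1 of 6 blood markers were lower in HIP rats, with medians of -0.33, -1.03, -0.55, -0.07, -0.0055 and -0.65. The mean of the border macrophage list ran from 4.63 to 5.72 in HIP and from 5.36 to 6.47 in AKO rats, and that of the neutrophil list from 1.65 to 3.17 in HIP rats. With the microglia mean as a covariate, 6 genes were higher and 6 lower, and the part of the other lists was not tested.

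Among the 15517 genes that averaged 10 normalized counts or more, those most like the mean of the 9 members over the 30 rats (Pearson's r with group means subtracted, a description) were Irgm (r = 0.79), Parp10 (0.78), Lgals3bp (0.77), Rtp4 (0.75), Slfn13 (0.73), MGC108823 (0.73), Zfp36l2 (0.71), Grn (0.70), Slfn2 (0.68) and Oasl2 (0.68). Irgm, an interferon-inducible GTPase, and Rtp4, a known interferon-stimulated gene, are on the pathway list, as are Parp10, Lgals3bp, Slfn13, Slfn2 and Oasl2. Without AKO rat 4KAH27 the r of these 10 genes ran from 0.69 (Grn) to 0.82 (Lgals3bp), and their order changed, with Lgals3bp, Irgm (0.79) and Oasl2 (0.78) first. The gene nearest each member alone was on the pathway list for Irf7 (Rtp4, r = 0.69), Irf9 (Rsad2, 0.81) and Mx1 (Lgals3bp, 0.86). It was not on that list for Stat2 (Trim39, 0.73), Isg15 (Mlf1, 0.77) and Ifit2 (Pdha1, 0.83). Nor was it for Ifit3 (Zfp36, 0.89), Mx2 (Gpr17, 0.86) and Oasl (Alox15, 0.72).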

How the data were processed

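Brain RNA of 30 male rats was sequenced from SMARTER libraries. The authors aligned reads to rn7 and counted them on Ensembl 105 genes in Partek Flow (the submitters' processing notes name Partek 10.0.22.0228, STAR 2.7.8a, Bowtie2 and DESeq2), with a final DESeq2 normalization. What was deposited is this normalized count signal, which is not in whole numbers. In each rat 79.9% to 83.8% of the values below 100 were whole multiples (tolerance 0.005) of 1 step, taken as the value of 1 read. The remaining values were not, so no count test could be used. Low genes are therefore known to about 1 read.

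Groups came from the sample labels. Values were analysed as log2(normalized count + 1), which understates changes of low genes. Groups were compared with limma 3.58.1 (R 4.3.3; lmFit, then eBayes with trend; two-sided) over every gene averaging 1 or more in the 20 rats compared, without covariates, with Benjamini-Hochberg adjustment over these genes and thresholds of 0.05. The fit was first tested on simulated data. Single genes and correlations were also tested by two-sided permutation (100000 resamples; Python 3.11.15, scipy 1.17.1, numpy 2.4.6). The members, gene lists and tests were chosen with earlier results of these data known. Named are all members, for each comparison the 8 pathway genes with the smallest unadjusted p-values under 0.05, and the 10 genes most like the members, except 1 pathway gene that is not reported here. Pias1, the gene nearest each member alone and the genes given for single rats were named after their values were seen. Alternatives were pseudocounts of 0.1 and 5, no filter or a mean of at least 10, all 30 rats, robust eBayes, sample-quality weights, quantile or median-ratio scaling, voom on estimated reads, covariates (microglia markers, library number, estimated reads), 4 rats left out (10RT43, 10RT46, 10RT48, 7AKO19) and each rat in turn. The olfactory bulb covariate and leaving out 6 rats (with 12RT23 and 4KAH27) were chosen after seeing the data, as was applying every alternative to the pathway list.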

Additional observations from a re-analysis of the deposited data

Results flagged for a closer look

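Of 27 sets of 10 values (9 genes in 3 groups), 7 held a rat whose gap to the nearest other rat passed the 95% critical value of Dixon's test. If values were spread normally, chance would give about 1.35 (1 in 20). The gaps were taken on normalized counts and not on the log2 scale, and all 7 are high values. Counts with a long upper tail pass more often, so the 7 cannot be read as an excess over chance. Irf9 was 272.5 normalized counts in AKO rat 4KAH27, with the other AKO rats between 67.2 and 159.9. Ifit3 was 471.8 in the same rat, with the others between 27.9 and 146.1. Ifit3 was also 172.2 in WT rat 10RT57, with the others between 49.8 and 92.4. Stat2 was 966.3 in WT rat 10RT43, the rat with cerebellum genes, with the others between 520.9 and 745.2. Mx1 was 234.1 in HIP rat 10RT48, with the others between 3.72 and 63.1. Oasl was 67.9 in HIP rat 10RT46, with the others between 6.32 and 20.4, and 30.8 in AKO rat 4KAH35, with the others between 4.49 and 16.5.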

How the results depend on the processing

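No member passed the adjusted threshold in any comparison under any alternative tried, leaving out single rats included, except 1 in HIP vs. AKO rats with sample-quality weights (Ifit2, 0.47, adjusted limma p = 0.0226, beside 0.186 to 0.644 under the other alternatives with a limma fit, single rats left out aside). In that fit 6.69% of all genes passed the adjusted threshold, beside 0.17% without weights. The number of members with an unadjusted limma p-value under 0.05 moved as follows. In HIP vs. WT rats it was 1 with voom (Ifit2) and 3 with estimated reads as a covariate (Irf7, Ifit2 and Oasl, adjusted p from 0.0944 to 0.192, where 24.8% of all genes passed), and 0 to 1 without single rats. In AKO vs. WT rats it was 0 with all 30 rats in one fit, voom, 4 rats left out and 6 rats left out, 2 with sample-quality weights (Mx1 and Stat2, where 23.04% of all genes passed), and 0 to 1 without single rats. With the microglia covariate it was 1, but Mx2 in place of Mx1. In HIP vs. AKO rats it was 0 with all 30 rats in one fit and with microglia markers, estimated reads or olfactory bulb markers as a covariate, and 0 to 1 without single rats. It was 1 with 4 rats left out, but Mx1 (-0.98, p = 0.047 by limma) in place of Ifit2 (0.34, p = 0.0659).

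Of the 102 pathway genes, the number with an unadjusted p-value under 0.05 in HIP vs. WT rats was 18 with estimated reads as a covariate (17.6%, beside 24.8% of all genes), 6 with 4 rats left out, 2 with 6 rats left out, 3 with weights, microglia markers or bulb markers, 2 with library number, and 0 to 3 without single rats. In AKO vs. WT rats it was 27 with weights, 19 with library number (18.6%, beside 10.7% of all genes) and 9 to 19 without single rats. In HIP vs. AKO rats it was 25 with weights, 23 with 4 rats left out, 24 with 6 left out and 8 to 18 without single rats. Past the adjusted threshold were 3 with estimated reads in HIP vs. WT rats (6.32% of all genes), and 7 and 4 with weights in AKO vs. WT and HIP vs. AKO rats (5.02% and 6.69%).

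Differences of members that changed sign passed no threshold on either side, and the cause was not tested. The widest moves were those of Mx1 in HIP vs. AKO rats, from -0.66 to 0.128 with the microglia covariate, of Mx1 in HIP vs. WT rats, from 0.10 to -0.39, and of Isg15 there, from -0.11 to 0.363. In HIP vs. WT rats, leaving out 4 rats gave -0.022 for Irf7, 0.0051 for Stat2, -0.39 for Mx1 and -0.042 for Mx2, and leaving out 6 gave -0.031, 0.0062, -0.389 and -0.017. Weights gave 0.029 for Irf9 and 0.057 for Stat2, voom 0.011 for Irf9, the bulb covariate 0.0012 for Irf9, and the microglia covariate -0.0698 for Mx1. Library number gave 0.045 for Irf9 and 0.126 for Isg15, and estimated reads 0.0801 and 0.363. In AKO vs. WT rats, library number gave 0.029 for Irf7, weights 0.025 for Mx2, and the microglia covariate 0.049 for Ifit2. Estimated reads gave 0.0066 for Irf7, -0.023 for Ifit3 and 0.053 for Mx2, and leaving out 6 rats -0.036 for Irf9 and -0.289 for Ifit3. In HIP vs. AKO rats, leaving out 6 rats gave 0.0098 for Irf9, 0.12 for Ifit3 and -0.0018 for Mx2.

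Without single rats, HIP vs. WT differences ran from -0.061 to 0.034 for Irf9, from -0.089 to 0.016 for Stat2, from -0.224 to 0.0495 for Isg15, from -0.191 to 0.016 for Ifit3, from -0.245 to 0.382 for Mx1 and from -0.063 to 0.128 for Mx2. AKO vs. WT differences ran from -0.149 to 0.036 for Irf7, from -0.149 to 0.018 for Ifit2, from -0.212 to 0.236 for Ifit3 and from -0.193 to 0.111 for Mx2, and HIP vs. AKO differences from -0.363 to 0.084 for Ifit3 and from -0.057 to 0.216 for Mx2. Isg15, Oasl and Mx1 are limited by depth. No paired analysis was possible because the labels give no replicate numbers shared between groups.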
